A study of Mus musculus with 25 samples.

Results

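Elf5, Kit, Aldh1a3, Cd14 and Folr1 are markers of the luminal progenitor, a dividing cell of the inner layer of the mammary duct. They were followed across 25 single-colour Affymetrix arrays of mouse mammary tumors and glands. The genes were taken by their symbols as 5 of the 19937 genes that a probe set with a single symbol measured. Each of the 5 had 1 probe set. All 5 entered every test.

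The arrays fall into 4 labelled groups. There were 10 tumors of K8-creERT2/PIK3CA H1047R mice on a mixed background of FVB/CD1, and 10 tumors of Lgr5-creERT2/PIK3CA H1047R mice on a mixed background of FVB/C57/BL6. There were 2 glands of K8-creERT2 mice (FVB/CD1) and 3 glands of Lgr5-creERT2 mice (FVB/C57/BL6), both labelled ctrl with no mutant named. Tamoxifen at 7 to 8 weeks of age switched the mutant on in cells with an active keratin 8 (K8) or Lgr5 promoter. PIK3CA is the catalytic subunit of PI3-kinase, and H1047R is an activating mutation of it. The labels carry the tamoxifen text for every array without a separate statement for the controls. Line and background cannot be told apart in any comparison of K8 with Lgr5 mice. The labels do not name the animal behind an array, so a p-value here weighs a difference against the spread from array to array, which may be technical, and the number of arrays limits the precision. Unless a fit on only the groups compared is named, that spread was pooled for each gene over all 4 groups. Differences in the K8 line are thus also weighed against the spread of the Lgr5 tumors.

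Luminal progenitors lie beside hormone-sensing luminal cells, which carry the estrogen and progesterone receptors, and above a basal layer of contractile cells. In pregnancy, prolactin acts through its receptor and the transcription factor Stat5a, and Elf5 drives progenitors to become milk-secreting alveolar cells. Kit is the receptor of stem cell factor (Kitl) and signals in part through PI3-kinase. Aldh1a3 makes retinoic acid from retinal, Cd14 is a co-receptor that passes endotoxin to Tlr4, and Folr1 takes up folate at the cell surface. Some of the members also mark other cells, since macrophages carry Cd14, and mast cells and melanocytes carry Kit.

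Marker genes went against the labels of several arrays. Lgr5 tumors 2, 6, 7, 8 and 9 had adipocyte means of 12.10 to 12.37 on the log2 scale, above all other arrays, whose highest was 10.97. The 17 measured adipocyte genes are those of fat cells, such as Adipoq and Plin1. K8 tumor 9 and Lgr5 tumor 10 had means of 9.18 and 9.44 over 18 squamous genes (keratins and envelope proteins of stratified epithelium), and the 5 glands lay at 8.20 to 9.77. Cell cycle means were 8.32 to 9.22 in K8 tumors and 6.71 to 9.31 in Lgr5 tumors, against 9.16 to 9.75 in the glands, whose adipocyte means were 7.51 to 9.32. Whether these 7 tumor arrays and the glands carry the tissue their labels name was not tested, so each direction below is one between sets of labelled arrays. The 7 arrays were chosen after their marker levels were seen, and results are given with and without them. Epcam, a surface protein of epithelial cells, was at 9.10 or above in every array, and Krt8 at 11.25 or above.

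For each of the 5 genes the lowest array was 1 of Lgr5 tumors 2, 6, 7, 8 and 9. The values below are the deposited log2 values, on which a difference of 1 is a doubling, and every test is limma's on 4 group means over 25 arrays, adjusted with Benjamini-Hochberg over 19937 genes. A gene passed where its adjusted p was under 0.05.

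**Figure D1:**
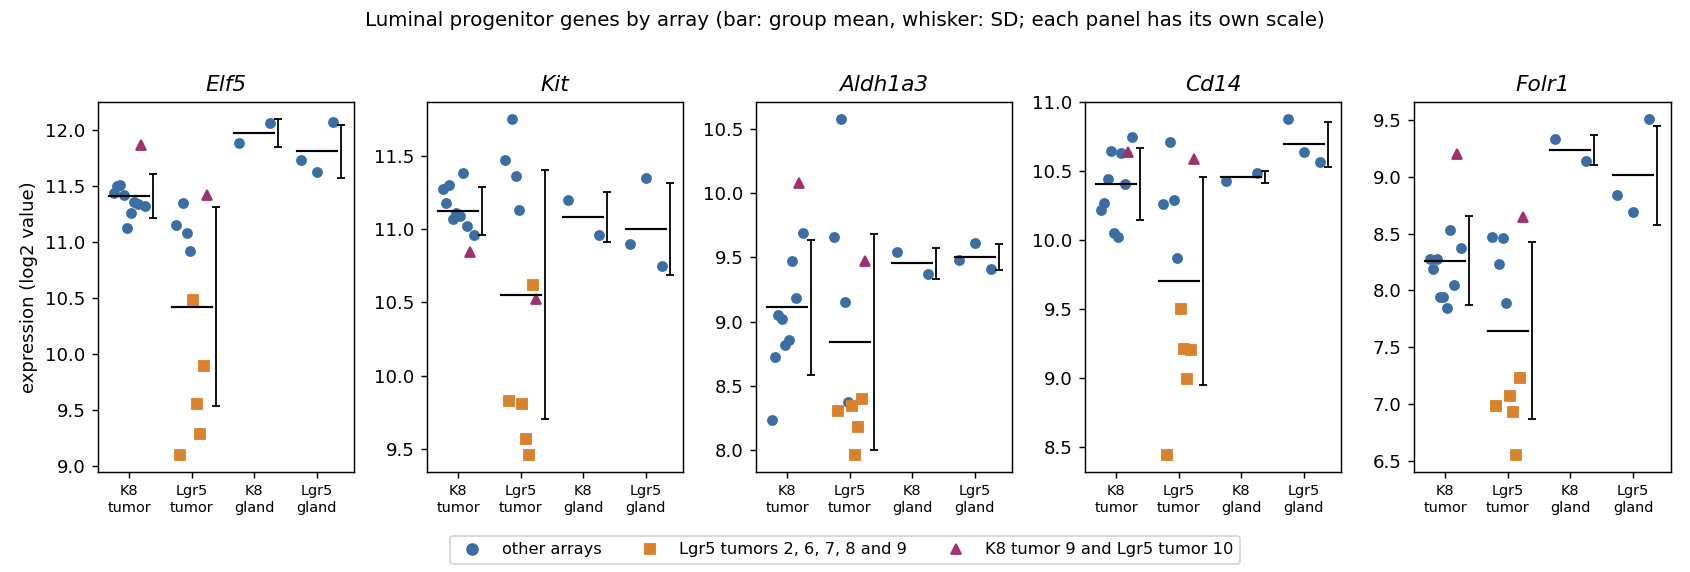
Each point is 1 array and the vertical axis is the deposited log2 value of the gene; groups run from K8 tumors and Lgr5 tumors to K8 glands and Lgr5 glands, with the mean as a bar and the SD as a whisker. Orange squares are Lgr5 tumors 2, 6, 7, 8 and 9, which lie at 9.10 to 10.48 for Elf5, below the other 20 arrays; purple triangles are K8 tumor 9 and Lgr5 tumor 10.

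Elf5, the transcription factor of alveolar fate, was lower in tumors than in glands of both lines. The K8 tumors had 11.12, 11.39 and 11.86 as lowest, median and highest value, against 11.88 and 12.06 in K8 glands. The Lgr5 tumors had 9.10, 10.70 and 11.42, against 11.73, 11.62 and 12.07 in Lgr5 glands. All 10 tumors of each line lay below every gland of their line. Groups failed to overlap with the tumors lower in 9.08% of all genes in the K8 line and 3.88% in the Lgr5 line. Elf5 fell by 1.38 ± 0.38 (SE) in Lgr5 tumors against Lgr5 glands, a 2.61-fold difference (limma, adjusted p = 0.0214). The difference was -0.56 ± 0.45 in K8 tumors against K8 glands and did not pass (limma, adjusted p = 0.506, 95% interval -1.5 to 0.38). The Lgr5 call was lost without Lgr5 gland 1 (limma, adjusted p = 0.0954) or Lgr5 gland 3 (limma, adjusted p = 0.0999). With only the groups of a contrast in the fit, both calls turned: the K8 difference passed (SE 0.14, limma, adjusted p = 0.0285) and the Lgr5 difference did not (SE 0.51, limma, adjusted p = 0.119).

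Within the Lgr5 tumors, Elf5 split along the adipocyte level of the arrays. Lgr5 tumors 2, 6, 7, 8 and 9 had 9.10, 10.48, 9.55, 9.29 and 9.89, and Lgr5 tumors 1, 3, 4, 5 and 10 had 11.15, 11.35, 11.08, 10.92 and 11.42. No value of the first set reached the lowest of the second. Elf5 averaged 11.41 ± 0.19 in K8 tumors and 10.42 ± 0.89 in Lgr5 tumors (SD, n = 10 each), a 1.98-fold difference of 0.99 ± 0.26 that passed (limma, adjusted p = 0.0166). Of the K8 tumors, 5 lay above every Lgr5 tumor. Without Lgr5 tumors 2, 6, 7, 8 and 9 the difference between tumors was 0.23 (limma, adjusted p = 0.605), where 0% of all genes passed. Their adipocyte level moves with the difference, and its part was not tested. In the same 20 arrays Elf5 fell by 0.56 ± 0.15 in K8 tumors against K8 glands (limma, adjusted p = 0.0283), and the Lgr5 difference was -0.62 ± 0.14 and did not pass (limma, adjusted p = 0.0826). In that fit 1 of 19937 genes (0.00502%) passed in the Lgr5 line, and 2549 did in the K8 line. The missing Lgr5 call is therefore not read as a difference between the lines. Without all 7 arrays Elf5 fell by 0.61 ± 0.12 in the K8 line (limma, adjusted p = 0.00121) and by 0.68 ± 0.11 in the Lgr5 line (limma, adjusted p = 0.00112). In bulk tissue, fewer cells of a type and less RNA per cell cannot be told apart.

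Both tumor groups had lower Elf5 means than both gland groups, which averaged 11.97 ± 0.13 in K8 glands (SD, n = 2) and 11.81 ± 0.23 in Lgr5 glands (SD, n = 3). The 2 sets of glands overlapped and did not differ beyond their spread.

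Elf5 and Kit were the 2 members with promoter entries in the RefSeq table of GRCm38.p6, and their letters are shown because Elf5 is itself an ETS factor, whose family binds GGAA. Each run covers 250 bases before an annotated start, 5′ to 3′, with every GGAA or its reverse complement TTCC in capitals. Elf5 start 1 lies at chr2:103411848-103412097 on the plus strand, Elf5 start 2 at chr2:103423818-103424067 on the plus strand, and Kit start 1 at chr5:75574737-75574986 on the plus strand.
Elf5 start 1: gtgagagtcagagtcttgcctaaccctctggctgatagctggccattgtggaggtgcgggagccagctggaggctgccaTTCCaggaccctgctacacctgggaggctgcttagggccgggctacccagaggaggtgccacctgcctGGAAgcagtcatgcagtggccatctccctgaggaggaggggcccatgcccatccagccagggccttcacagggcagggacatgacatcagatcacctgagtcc
Elf5 start 2: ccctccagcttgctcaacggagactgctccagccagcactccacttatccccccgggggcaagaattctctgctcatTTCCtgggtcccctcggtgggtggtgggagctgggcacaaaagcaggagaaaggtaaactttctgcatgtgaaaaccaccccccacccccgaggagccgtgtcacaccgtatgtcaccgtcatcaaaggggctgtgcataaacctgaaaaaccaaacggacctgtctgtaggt
Kit start 1: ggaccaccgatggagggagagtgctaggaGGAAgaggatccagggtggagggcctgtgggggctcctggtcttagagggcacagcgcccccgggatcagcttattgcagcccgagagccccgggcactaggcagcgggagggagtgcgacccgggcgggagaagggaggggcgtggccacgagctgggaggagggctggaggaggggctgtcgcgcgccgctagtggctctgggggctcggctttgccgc
Elf5 start 1 holds 2 such matches, and Elf5 start 2 and Kit start 1 hold 1 each. A match stands in 93.4% of the 32851 promoters of the table, and 76.8% hold at least 2. The Stat5 motif TTCNNNGAA, which stands in 7.0% of the promoters on either strand, is not in these windows. These matches are descriptions of letters.

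The genes around Elf5 were read from 9 measured genes of the prolactin and Stat5 axis and 12 measured milk genes. In K8 tumors against K8 glands, 0 of the 9 rose and 1 fell, where 3.42% of all genes rose and 5.69% fell. The 1 was Stat5a, the factor that carries the prolactin signal, at 8.95 to 9.84 in K8 tumors and 10.04 and 10.26 in K8 glands (-0.88 ± 0.23, limma, adjusted p = 0.0248). In Lgr5 tumors it lay at 8.83 to 9.77, against 9.36 to 9.85 in Lgr5 glands, and the difference of -0.16 ± 0.20 did not pass (limma, adjusted p = 0.627). In the Lgr5 line 0 of the 9 rose and 1 fell, where 5.28% of all genes rose and 10.6% fell. The gene was Tnfrsf11a (-0.91 ± 0.27, limma, adjusted p = 0.0284), the receptor of RANK ligand. Between tumors 2 rose and 0 fell in K8 tumors against Lgr5 tumors, where 12.3% of all genes rose and 9.00% fell: Tnfrsf11a (0.69 ± 0.18) and Gata3 (0.89 ± 0.29), a luminal transcription factor. Neither passed without Lgr5 tumors 2, 6, 7, 8 and 9, where 0% of all genes passed between tumors.

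Of the milk genes, 3 fell and 0 rose in the K8 line, where 5.69% of all genes fell, and 2 fell and 0 rose in the Lgr5 line, where 10.6% fell. Wap, whey acidic protein, had 6.56, 7.70 and 9.40 as lowest, median and highest value in K8 tumors, against 10.10 and 11.69 in K8 glands (-3.07 ± 0.77, limma, adjusted p = 0.0207). It had 6.08, 6.61 and 8.52 in Lgr5 tumors, against 8.03, 8.47 and 11.28 in Lgr5 glands (-2.44 ± 0.65, limma, adjusted p = 0.0189). The K8 tumors all lay below the K8 glands, as in 9.08% of all genes, and the Lgr5 groups overlapped. Olah, which ends fatty acid synthesis at medium chain length in the milk gland, also fell in both lines (-1.97 ± 0.43 and -1.17). Without all 7 arrays, 5 of the 12 fell in the K8 line and 2 in the Lgr5 line, where 15.4% and 10.8% of all genes fell.

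Folr1, the folate receptor, was like Elf5 in its group order. K8 tumors had 7.84, 8.23 and 9.20 as lowest, median and highest value, against 9.33 and 9.14 in K8 glands. Lgr5 tumors had 6.55, 7.56 and 8.65, against 8.84, 8.69 and 9.51 in Lgr5 glands. All 10 Lgr5 tumors lay below every Lgr5 gland, as in 3.88% of all genes, and 9 of 10 K8 tumors lay below both K8 glands. The exception was K8 tumor 9 at 9.20. Folr1 fell by 1.37 ± 0.37 in Lgr5 tumors against Lgr5 glands, a 2.58-fold difference (limma, adjusted p = 0.0201), and the K8 difference was -0.97 ± 0.44 (limma, adjusted p = 0.169). It averaged 8.26 ± 0.39 in K8 tumors and 7.65 ± 0.77 in Lgr5 tumors (SD, n = 10 each), and this difference of 0.62 ± 0.25 did not pass (limma, adjusted p = 0.0839, 95% interval 0.09 to 1.14). The Lgr5 tumor-gland call was lost without Lgr5 gland 1 (limma, adjusted p = 0.0841) or Lgr5 gland 3 (limma, adjusted p = 0.12). Between tumors it passed without Lgr5 tumor 1, 4 or 10, with a lowest adjusted p of 0.032 (limma). With only the groups of a contrast in the fit, the K8 difference passed (limma, adjusted p = 0.0382) and the Lgr5 difference did not (limma, adjusted p = 0.094). With arrays weighted by how well they fit their group, the K8 difference of -1.05 (limma, adjusted p = 0.00545) and that between tumors of 0.751 (limma, adjusted p = 0.0063) passed. In that fit 6341 of 19937 genes passed in the K8 line and 7997 between tumors, against 1815 and 4246 with equal weights.

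Lgr5 tumors 2, 6, 7, 8 and 9 had the 5 lowest Folr1 values of the series, at 6.98, 7.07, 6.93, 6.55 and 7.23. Lgr5 tumors 1, 3, 4, 5 and 10 had 8.47, 8.23, 8.46, 7.89 and 8.65. Without the 5 arrays Folr1 fell by 0.97 ± 0.27 in K8 tumors against K8 glands (limma, adjusted p = 0.0325), and the Lgr5 difference of -0.68 ± 0.26 did not pass (limma, adjusted p = 0.177). In that fit 1 of 19937 genes (0.00502%) passed in the Lgr5 line, and 2549 did in the K8 line. Without all 7 Folr1 fell by 1.08 ± 0.20 in the K8 line (limma, adjusted p = 0.00108) and by 0.75 ± 0.20 in the Lgr5 line (limma, adjusted p = 0.016). Elf5 and Folr1 were the 2 members that passed in both lines among those 18 arrays, where 15.4% of all genes fell in the K8 line and 10.8% in the Lgr5 line.

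Folate enzymes were read from 11 measured genes. None passed in the K8 line, where 9.10% of all genes did. In the Lgr5 line 1 rose and 5 fell, where 5.28% of all genes rose and 10.6% fell, the lower ones led by Mthfd1 (-0.55 ± 0.11), Shmt2 (-0.64 ± 0.15) and the thymidylate synthase Tyms (-0.80 ± 0.23). Between tumors 6 were higher and 1 lower in K8 tumors, where 12.3% and 9.00% of all genes were, with Tyms at 0.66 ± 0.15 and the folate carrier Slc19a1 at -0.62 ± 0.18. Tyms serves DNA synthesis, and the cell cycle mean moved the same way: it was 6.71 to 7.80 in Lgr5 tumors 2, 6, 7, 8 and 9, with a median of 7.24 there and 9.04 in the other 20 arrays. Its part in these counts was not tested. Without the 5 arrays none of the 11 passed in the Lgr5 line or between tumors, where 0.00502% and 0% of all genes did. Folr2, the folate receptor of macrophages, differed by 0.57 in the K8 line, 0.88 in the Lgr5 line and -0.76 between tumors, and passed in none.

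Cd14 was lower in Lgr5 tumors than in Lgr5 glands and close between K8 tumors and K8 glands. K8 tumors had 10.02, 10.43 and 10.75 as lowest, median and highest value, against 10.43 and 10.49 in K8 glands, with 5 tumors below and 4 above both glands. Lgr5 tumors had 8.44, 9.68 and 10.71, against 10.88, 10.64 and 10.57 in Lgr5 glands, and 8 of the 10 lay below every gland. Cd14 fell by 0.99 ± 0.34 in the Lgr5 line, a 1.99-fold difference (limma, adjusted p = 0.0472). The K8 difference was -0.05 ± 0.39 (limma, adjusted p = 0.968, 95% interval -0.87 to 0.77). Cd14 averaged 10.41 ± 0.26 in K8 tumors and 9.71 ± 0.76 in Lgr5 tumors (SD, n = 10 each), a 1.63-fold difference of 0.70 ± 0.23 that passed (limma, adjusted p = 0.034). Of the K8 tumors, 1 lay above every Lgr5 tumor. The Lgr5 tumor-gland call held in 6 of 25 fits that each left out 1 array, and the highest adjusted p was 0.195 (limma), without Lgr5 gland 1. The call between tumors held in 17 of those 25 fits and was lost without K8 tumor 3, 4 or 10 or Lgr5 tumor 2, 6, 7, 8 or 9, with a highest adjusted p of 0.0718 (limma). With only the groups of a contrast in the fit, neither passed (limma, adjusted p = 0.173 in the Lgr5 line and 0.0539 between tumors).

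The values of Cd14 in Lgr5 tumors 2, 6, 7, 8 and 9 were 8.44, 9.50, 9.21, 8.99 and 9.20, below the other 20 arrays. Lgr5 tumors 1, 3, 4, 5 and 10 had 10.26, 10.71, 10.29, 9.87 and 10.59, within the range of the K8 tumors but for the lowest. Without the 5 arrays the Lgr5 difference was -0.35 ± 0.18 (limma, adjusted p = 0.304) and that between tumors 0.06, and neither passed. Of all genes, 0.00502% passed in the Lgr5 line and 0% between tumors in that fit. Without all 7 the Lgr5 difference was -0.42 ± 0.19 (limma, adjusted p = 0.153) and that between tumors 0.10 (limma, adjusted p = 0.831). There too 0% of all genes passed between tumors. Both K8 glands lay below every Lgr5 gland in Cd14, as did 8.72% of all genes.

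Macrophage genes were read beside Cd14. The mean of 13 macrophage genes was 8.76 to 9.76 in K8 tumors, 8.94 to 9.78 in Lgr5 tumors, 9.19 to 9.27 in K8 glands and 9.12 to 9.61 in Lgr5 glands. Its median was 9.28 in Lgr5 tumors 2, 6, 7, 8 and 9 and 9.23 in the other 20 arrays. The list had 1 gene higher and 0 lower in each line, Mrc1, the mannose receptor, and 0 in either direction between tumors. Of all genes, 3.42% rose in the K8 line and 5.28% in the Lgr5 line, and 21.3% passed between tumors. Adgre1, Csf1r and Cd68, which define the list, did not pass in these 3 contrasts. The endotoxin axis held 11 measured genes, and none passed in the K8 line, where 9.10% of all genes did. In the Lgr5 line 2 fell, where 10.6% of all genes did: the adaptor Tirap (-0.65 ± 0.17) and the cytokine Il1b (-2.72 ± 0.76). Between tumors Ticam1 was higher (0.28) and Ly96 (-0.52 ± 0.16), the Tlr4 partner, and Irak1 (-0.18) were lower in K8 tumors. Of all genes, 12.3% were higher and 9.00% lower there. Tlr4 itself differed by -0.18, -0.02 and -0.16 and did not pass.

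Aldh1a3 passed in no contrast of the fit over 25 equally weighted arrays. K8 tumors had 8.23, 9.04 and 10.08 as lowest, median and highest value, against 9.54 and 9.37 in K8 glands. Lgr5 tumors had 7.96, 8.38 and 10.58, against 9.48, 9.61 and 9.41 in Lgr5 glands. In each line 7 tumors lay below and 2 above every gland, so the tumors spread on both sides of the narrow glands. The difference was -0.34 ± 0.49 in the K8 line (limma, adjusted p = 0.759, 95% interval -1.36 to 0.67) and -0.66 ± 0.42 in the Lgr5 line (limma, adjusted p = 0.29, 95% interval -1.52 to 0.2). Between tumors, 9.11 ± 0.53 in K8 and 8.84 ± 0.84 in Lgr5 (SD, n = 10 each), it was 0.27 ± 0.28 (limma, adjusted p = 0.536). With array weights it passed in the Lgr5 line, at -0.836 (limma, adjusted p = 0.0297). In that fit 7815 of 19937 genes passed in the Lgr5 line, against 3168 with equal weights. Lgr5 tumors 2, 6, 7, 8 and 9 had 8.30, 8.34, 7.96, 8.18 and 8.40, and Lgr5 tumors 1, 3, 4, 5 and 10 had 9.66, 10.58, 9.15, 8.37 and 9.47. Lgr5 tumor 5, of the second set, thus overlapped the first. Group labels accounted for 13.5% of the squared deviation of Aldh1a3 over the 25 arrays, against 53.0% for Elf5, 50.1% for Folr1, 39.1% for Cd14 and 20.3% for Kit.

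The retinoic acid axis held 15 measured genes besides Aldh1a3. In the K8 line 0 rose and 1 fell, in the Lgr5 line 3 rose and 2 fell, and between tumors 0 were higher and 2 lower in K8 tumors, where 5.69%, 10.6% and 9.00% of all genes were lower and 5.28% rose in the Lgr5 line. Stra6, which imports retinol, fell in both lines (-3.87 ± 1.08, limma, adjusted p = 0.03, and -2.85 ± 0.92). It had 6.78, 7.96 and 12.20 as lowest, median and highest value in K8 tumors, against 12.07 and 12.11 in K8 glands, and 6.77, 7.61 and 11.72 in Lgr5 tumors, against 9.26 to 11.90 in Lgr5 glands. Its high arrays were those with high squamous means, and the part of squamous tissue was not tested. Rbp4, the retinol carrier that fat cells also secrete, rose in the Lgr5 line (3.12 ± 0.97) and was lower in K8 tumors than in Lgr5 tumors (-2.82 ± 0.66). Dhrs3 (0.83 ± 0.24), which turns retinal back to retinol, and Aldh1a1 (2.32 ± 0.78), another retinal dehydrogenase, also rose in the Lgr5 line, and Crabp2 (-2.34 ± 0.76), a retinoic acid carrier, fell. Without the 5 arrays none passed in the Lgr5 line or between tumors, where 0.00502% and 0% of all genes did.

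Kit, the receptor of stem cell factor, also passed in no contrast of that fit. K8 tumors had 10.84, 11.10 and 11.38 as lowest, median and highest value, against 11.20 and 10.96 in K8 glands. Lgr5 tumors had 9.46, 10.57 and 11.75, against 10.90, 11.35 and 10.75 in Lgr5 glands. Tumors lay on both sides of the glands in each line. The difference was 0.04 ± 0.43 in the K8 line (limma, adjusted p = 0.976, 95% interval -0.85 to 0.94) and -0.45 ± 0.37 in the Lgr5 line (limma, adjusted p = 0.439, 95% interval -1.21 to 0.32). Between tumors, 11.12 ± 0.17 in K8 and 10.55 ± 0.85 in Lgr5 (SD, n = 10 each), it was 0.57 ± 0.25 (limma, adjusted p = 0.105), and it passed without Lgr5 tumor 3 (limma, adjusted p = 0.0272) and, at 0.759, with array weights (limma, adjusted p = 0.00573). The weighted fit called 7997 of 19937 genes between tumors, against 4246 with equal weights. Lgr5 tumors 2, 6, 7, 8 and 9 had Kit values of 9.83, 9.81, 9.57, 9.46 and 10.62, and Lgr5 tumors 1, 3, 4, 5 and 10 had 11.47, 11.75, 11.36, 11.13 and 10.52. Lgr5 tumor 10, with its high squamous mean, was the low array of the second set. In the 18 arrays without the 7, the Lgr5 difference turned to 0.43 ± 0.15 and did not pass (limma, adjusted p = 0.0576).

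Kitl, stem cell factor, the ligand of Kit, was higher in K8 tumors. It had 9.57, 10.77 and 11.11 as lowest, median and highest value in K8 tumors, against 8.73 and 9.27 in K8 glands, so every K8 tumor lay above both glands, as in 7.23% of all genes. It rose 3.24-fold (1.70 ± 0.36, limma, adjusted p = 0.0134). In Lgr5 tumors it had 9.34, 10.11 and 10.85, against 9.20, 9.38 and 10.46 in Lgr5 glands, and the difference of 0.53 ± 0.31 did not pass (limma, adjusted p = 0.248). The difference between the lines in this response, 1.17 ± 0.48, did not pass either (limma, adjusted p = 0.781). With all 7 arrays set aside Kitl rose in both lines, by 1.82 ± 0.24 in K8 (limma, adjusted p = 7.45e-05) and 1.03 ± 0.23 in Lgr5 (limma, adjusted p = 0.00683), where 11.4% and 7.14% of all genes rose. Of the 11 measured genes of the axis, the K8 line had 1 higher and 1 lower, where 3.42% and 5.69% of all genes were. The Lgr5 line had 0 higher and 1 lower, where 5.28% and 10.6% of all genes were. Between tumors 2 were higher (Stat3, Pik3r1) and 2 lower (Mitf, Gab2) in K8, where 12.3% and 9.00% of all genes were. The lower gene in both lines was Sos1 (-0.25 ± 0.06 and -0.17), an exchange factor for Ras. Pik3ca, the gene mutated here, differed by 0.16 in the K8 line and 0.14 in the Lgr5 line, and neither passed. With the 7 set aside it rose by 0.18 ± 0.06 in the K8 line (limma, adjusted p = 0.0236).

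Mast cells carry Kit. Of 11 measured mast cell genes 0 were higher and 5 lower in K8 tumors than in Lgr5 tumors, where 9.00% of all genes were lower, led by the proteases Cpa3 (-2.55 ± 0.54) and Mcpt4 (-2.02 ± 0.44). Cpa3 had 5.98, 7.08 and 10.80 as lowest, median and highest value in K8 tumors and 7.33, 10.42 and 11.12 in Lgr5 tumors. The mast cell mean ranged over 5.64 to 7.01 in K8 tumors, 5.92 to 7.49 in Lgr5 tumors, 6.29 to 6.63 in K8 glands and 6.03 to 6.87 in Lgr5 glands. Its median was 6.94 in the 5 fat-rich arrays, in which Kit was low, and 6.28 in the other 20. Without those 5 arrays, or without all 7, 0 of the 11 passed between tumors, where 0% of all genes did in either fit. The mean of 7 melanocyte genes stayed at 5.97 to 6.33 in all arrays, with Tyr, which makes melanin, at 5.07 to 5.20.

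Counted together, 0 of 5 members passed in K8 tumors against K8 glands, where 9.10% of all genes did. In Lgr5 tumors against Lgr5 glands 3 of 5 passed, all lower, where 15.9% of all genes passed. In K8 tumors against Lgr5 tumors 2 of 5 passed, both higher, where 21.3% of all genes passed. The median member difference was -0.34, -0.99 and 0.62, and that over all genes -0.0121, -0.0105 and 0.00686. These contrasts share arrays: the K8 tumors and the Lgr5 tumors each enter 2 of them. Single glands weighed on the counts over all genes: the K8 line had 30 calls without K8 gland 1 and 75 without K8 gland 2, against 1815, and the Lgr5 line had 252 without Lgr5 gland 1 and 705 without Lgr5 gland 3, against 3168. At an unadjusted p under 0.05 the members passing were 1, 3 and 4. No gene of the 19937 separated K8 from Lgr5 tumors without overlap (0%).

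The lines were also compared with each other. In K8 glands against Lgr5 glands the member differences were 0.17 for Elf5, 0.08 for Kit, -0.05 for Aldh1a3, -0.24 for Cd14 and 0.22 for Folr1. None passed, as 0% of all genes did in limma, while 319 genes and 0 members had an unadjusted p under 0.05. With 2 glands against 3 the intervals were wide, from -0.94 to 1.27 for Elf5. The tumor-gland difference of the K8 line minus that of the Lgr5 line was positive in all 5, from 0.32 for Aldh1a3 to 0.94 for Cd14 (95% interval -0.13 to 2.01). Adjusted p-values lay between 0.781 and 0.915 in limma, and 0% of all genes passed, with 883 genes and 0 members at an unadjusted p under 0.05. Members that passed in the Lgr5 line and not in the K8 line are therefore not shown to differ between the lines.

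**Figure D2:**
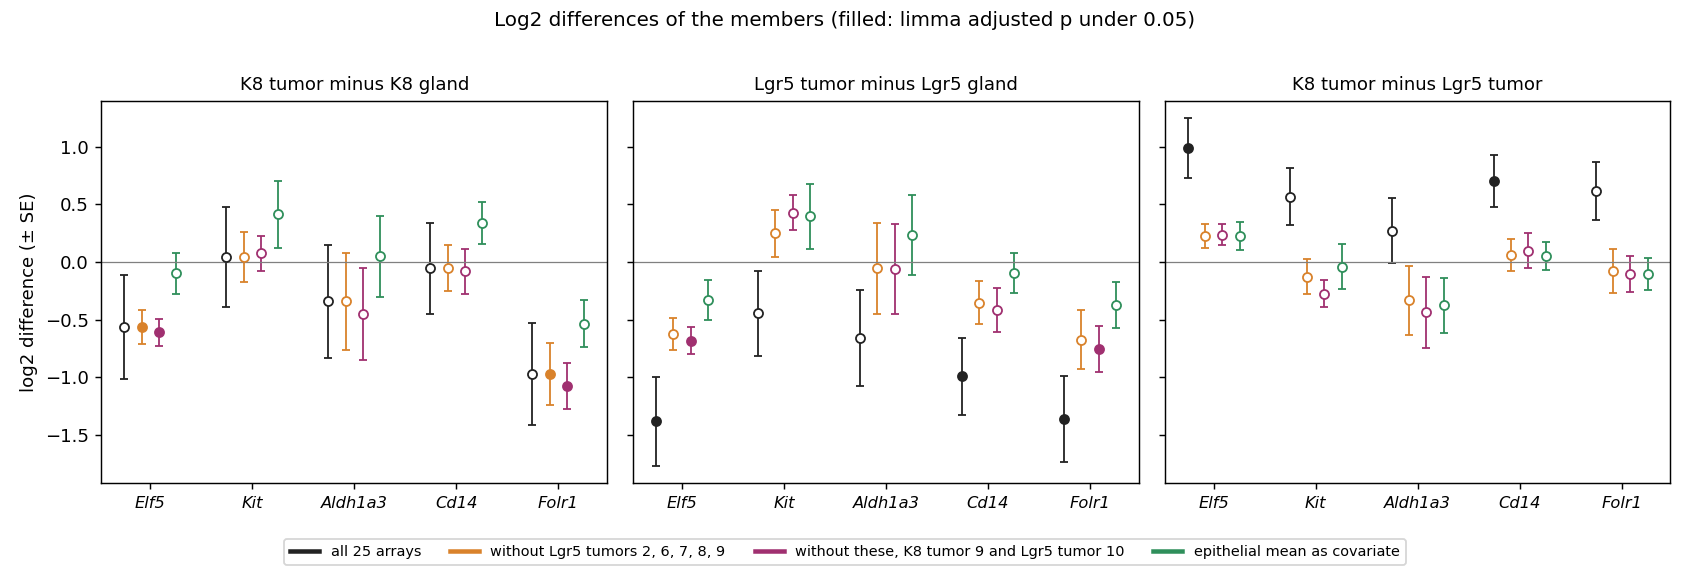
Each point is the log2 difference of a gene with its SE as a bar, for K8 tumors minus K8 glands, Lgr5 tumors minus Lgr5 glands and K8 tumors minus Lgr5 tumors, in 4 settings: all 25 arrays, without Lgr5 tumors 2, 6, 7, 8 and 9, without all 7 arrays, and with the epithelial mean as a covariate; filled points passed at an adjusted p under 0.05. Elf5 and Folr1 stay below 0 in both tumor-gland contrasts, and the 2 filled differences between tumors, Elf5 at 0.99 and Cd14 at 0.70, lie between 0.05 and 0.24 in the other 3 settings.

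The members varied within the labelled groups as well as between them. Elf5 and Folr1 ranged over 2.97 and 2.96 on the log2 scale, each a 7.8-fold range, Aldh1a3 over 2.62, Cd14 over 2.44 and Kit over 2.29. Median values in Lgr5 tumors 2, 6, 7, 8 and 9 against the other 20 arrays were 9.55 and 11.42 for Elf5, 9.81 and 11.12 for Kit, 8.30 and 9.39 for Aldh1a3, 9.20 and 10.47 for Cd14, and 6.98 and 8.41 for Folr1. All of the other 20 arrays lay above the 5 in Elf5, Cd14 and Folr1, 19 did in Kit and 18 in Aldh1a3. All 20 also did in the means of the epithelial, cell cycle, other luminal progenitor, endotoxin and folate lists. In the adipocyte, mast cell, fibroblast, endothelial, and T and B cell means 0 did. The share of all genes that separate these 2 sets was not computed. The epithelial mean over 18 genes had medians of 9.05 and 10.60 in the same sets, a gap of -1.56, and the adipocyte mean 12.28 and 8.67. The 5 arrays were picked by their fat genes, and the gaps are given with no test.

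Set against the epithelial genes of the same array, the members parted. Elf5 minus the epithelial mean was 0.84 ± 0.15 in K8 tumors, 0.66 ± 0.29 in Lgr5 tumors, 0.91 ± 0.09 in K8 glands and 0.93 ± 0.24 in Lgr5 glands (SD, n = 10, 10, 2 and 3). Kit minus the epithelial mean was 0.55 ± 0.35 and 0.79 ± 0.42 in K8 and Lgr5 tumors, and 0.02 ± 0.20 and 0.12 ± 0.52 in K8 and Lgr5 glands. On this scale Elf5 lay slightly lower in tumors and Kit higher. Folr1 was at -2.31 ± 0.29 and -2.12 ± 0.21 in K8 and Lgr5 tumors, and -1.83 ± 0.18 and -1.87 ± 0.41 in K8 and Lgr5 glands. Cd14 was at -0.16 ± 0.24 and -0.06 ± 0.30 in the tumors, and -0.60 ± 0.01 and -0.18 ± 0.18 in the glands. Aldh1a3 was at -1.46 ± 0.44 and -0.92 ± 0.53 in the tumors, and -1.61 ± 0.16 and -1.38 ± 0.31 in the glands. With the epithelial mean as a covariate no member passed in any of the 3 contrasts. In that fit 2 of 19937 genes passed in the Lgr5 line and 0 between tumors, against 2688 in the K8 line. Elf5 then differed by -0.33 in the Lgr5 line (limma, adjusted p = 0.442) and 0.22 between tumors (limma, adjusted p = 0.51), and Folr1 by -0.54 in the K8 line (limma, adjusted p = 0.0811).

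Other luminal progenitor genes numbered 19. In the K8 line none passed, where 9.10% of all genes did. In the Lgr5 line 5 fell and 0 rose, where 10.6% of all genes fell. Between tumors 9 were higher and 0 lower in K8 tumors, where 12.3% of all genes were higher. The median differences of the 19 were -0.09, -0.90 and 0.54. The 5 that fell in the Lgr5 line were Cebpb (-0.92 ± 0.20), a transcription factor of alveolar development, Lbp (-1.10 ± 0.24), which carries endotoxin to Cd14, the integrin Itga2 (-1.02 ± 0.28), the repressor Bcl11a (-1.08 ± 0.30) and Plet1 (-1.20 ± 0.36), a surface protein. Lbp had 10.34, 10.82 and 11.61 as lowest, median and highest value in Lgr5 tumors, against 11.83 to 12.11 in Lgr5 glands, with no overlap, as in 3.88% of all genes. Between tumors the genes with the smallest adjusted p were Itga2 (0.81 ± 0.19), Tspan8 (2.13 ± 0.54), a tetraspanin, Sox10 (1.04 ± 0.28), a progenitor transcription factor, and the receptor Notch3 (0.51 ± 0.15). Tspan8 had 8.51, 9.92 and 10.48 in K8 tumors and 5.70, 7.68 and 10.22 in Lgr5 tumors.

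These counts turned on the arrays included. Without Lgr5 tumors 2, 6, 7, 8 and 9, none of the 19 passed in the Lgr5 line, where 0.00502% of all genes did, and none between tumors, where 0% did. In the K8 line 1 rose and 4 fell, where 943 of 19937 genes rose and 8.06% fell. Without all 7 arrays, 5 rose and 6 fell in the K8 line, where 11.4% of all genes rose and 15.4% fell. In the Lgr5 line 2 rose and 5 fell, where 7.14% of all genes rose and 10.8% fell. Again none passed between tumors, where 0% of all genes did. The 5 that fell in the Lgr5 line were the 5 named above, and 4 of them, Bcl11a, Cebpb, Lbp and Plet1, were among the 6 of the K8 line. Hey1, a Notch target, was among those that rose in the K8 line (2.69 ± 0.44), as did Notch1 (0.76). The progenitor genes that passed thus lay in both directions in those arrays, as all genes did.

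**Figure D3:**
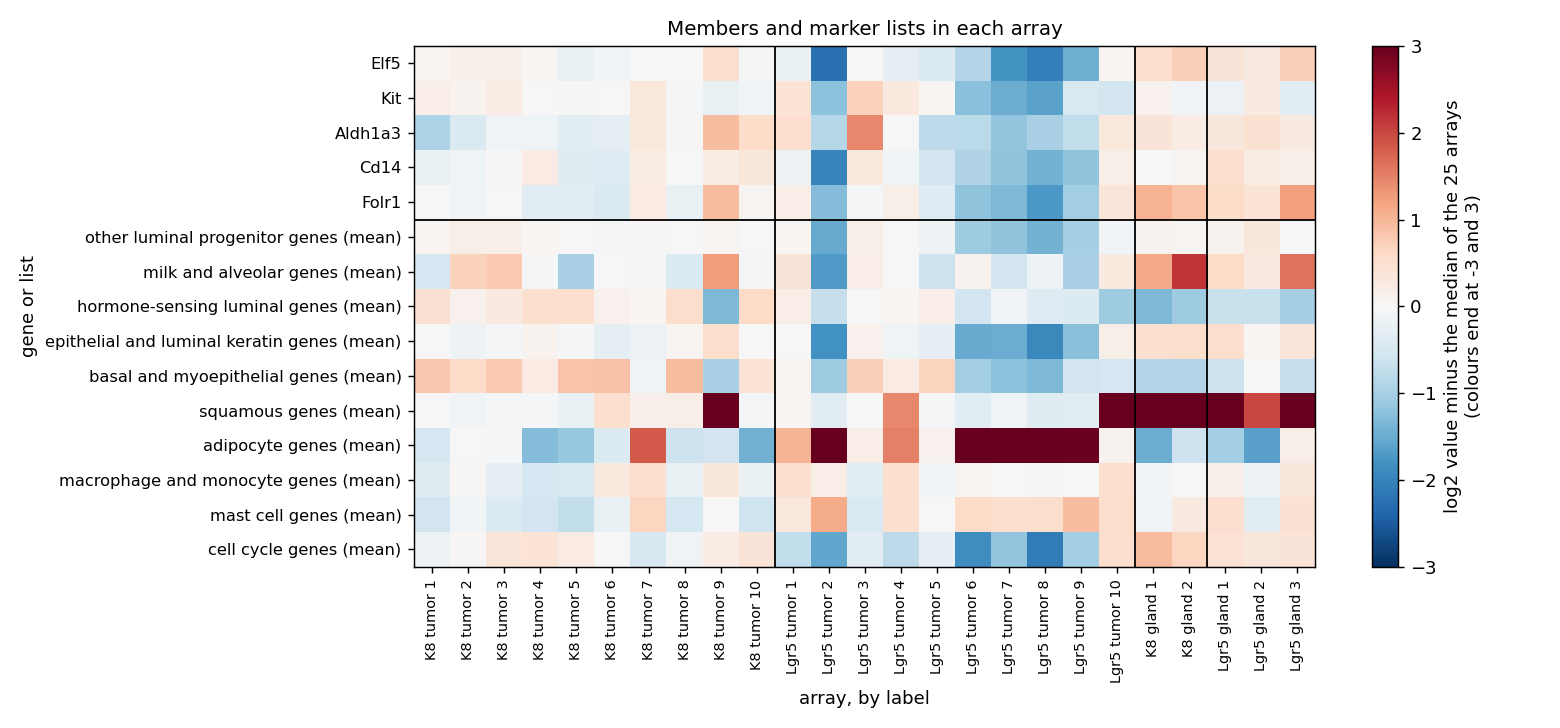
Rows are the 5 members and the means of gene lists, columns are the 25 arrays in their labelled groups, and colour is the log2 value minus the median of that row over the 25 arrays, with colours ending at -3 and 3. In the columns of Lgr5 tumors 2, 6, 7, 8 and 9 the members and the epithelial mean are low and the adipocyte mean is high, and in the columns of K8 tumor 9 and Lgr5 tumor 10 the squamous mean is high as in the glands.

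Relations among the members were read in the 13 tumor arrays left after setting aside the 7 arrays and the 5 glands, because the remaining sets form separate clusters. All 10 pairs were computed, with 100000 permutations each. Aldh1a3 and Cd14 had the highest Pearson r, 0.704 (permutation p = 0.00573, 0.0573 after Benjamini-Hochberg), with Spearman's rho at 0.731 (permutation p = 0.00586, 0.0586 after Benjamini-Hochberg). Without the 2 arrays farthest from the median of Aldh1a3 r was 0.709, and within the 9 K8 tumors it was 0.723. Elf5 with Cd14 had r = 0.581 (permutation p = 0.0375, 0.14 after Benjamini-Hochberg), and Kit with Aldh1a3 r = 0.576 (permutation p = 0.0419, 0.14 after Benjamini-Hochberg). These became 0.375 and -0.125 without the 2 farthest arrays, so they rest on them. The same step, with the arrays farthest from the median of the first gene left out, took Aldh1a3 with Folr1 to 0.754, against 0.435 over the 13 (permutation p = 0.136), and Kit with Folr1 to 0.601, against 0.502 (permutation p = 0.0771). Elf5 and Folr1, which shared the group order, had r = 0.18 (permutation p = 0.556), and Elf5 and Kit 0.0242 (permutation p = 0.938). The 13 arrays pool both lines, and the permutations did not keep the lines apart. Within the 9 K8 tumors r was 0.417 for Elf5 and Folr1 and 0.397 for Elf5 and Kit. It was 0.376 there for Elf5 and Cd14 and -0.266 for Kit and Aldh1a3. No pair passed after adjustment.

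**Figure D4:**
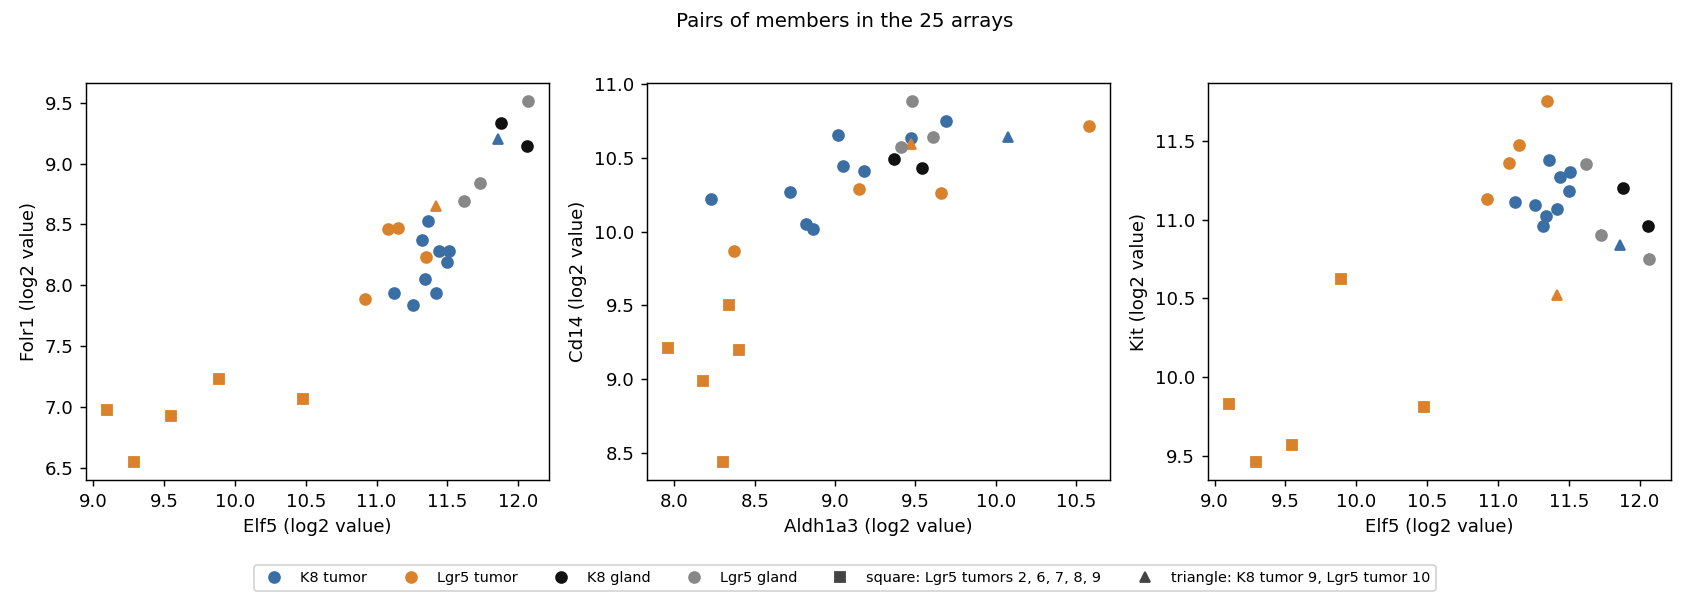
Each panel plots 1 member against another, both as deposited log2 values, with 1 point per array. Colour is the group: blue for K8 tumors, orange for Lgr5 tumors, black for K8 glands and grey for Lgr5 glands. Squares are Lgr5 tumors 2, 6, 7, 8 and 9, triangles are K8 tumor 9 and Lgr5 tumor 10, and circles are the other arrays. Over all arrays the points fall into clusters, and among the 13 tumors used for the relations Aldh1a3 and Cd14 have r = 0.704, Elf5 and Folr1 0.18 and Elf5 and Kit 0.0242. Within the 9 K8 tumors of these, the same pairs have 0.723, 0.417 and 0.397.

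The genes most like each member were taken by Pearson r over all 25 arrays among 16997 named genes, as a description in which the 5 fat-rich arrays weigh heavily. Elf5 was nearest to Prss8 (0.976), a serine protease of epithelia, Plet1 (0.976), Rnf43 (0.972), Irx1 (0.970) and Tmprss13 (0.969), and over the 13 tumors these had 0.786, 0.423, 0.448, 0.740 and 0.777. Kit was nearest to Sox9 (0.957), a progenitor transcription factor, Txndc16 (0.955), Enpp3 (0.948), Tgfb3 (0.948) and Trp53bp2 (0.946), with 0.834, 0.753, 0.785, 0.820 and 0.717 over the 13. Kit thus kept values of 0.717 or above with its 5 nearest genes in the tumors alone, and Elf5 did so with 3 of 5. Cd14 was nearest to Car2 (0.956), carbonic anhydrase, Tmprss13 (0.951), Spint1 (0.949), Tmc4 (0.936) and Ezr (0.935), with 0.661, 0.692, 0.645, 0.827 and 0.596 over the 13. Folr1 was nearest to Slc35c1 (0.964), Iqgap1 (0.961), Litaf (0.956), Lbp (0.956) and Nhsl1 (0.955), with 0.782, 0.646, 0.290, 0.612 and 0.486. Aldh1a3 had the weakest neighbours: Flvcr1 (0.905), Kdm2a (0.843), Pcsk7 (0.826), Otub1 (0.826) and Tbc1d25 (0.82), with 0.859, 0.807, 0.836, 0.707 and 0.723 over the 13. Among the 5 members, the r values of Aldh1a3 differed least between the 25 and the 13 arrays, and those of Folr1 most.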

How the data were processed

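Total RNA of cryo-homogenized tissue was amplified from 100 ng with a whole-transcript kit and hybridised to Affymetrix arrays in a single colour, as the labels' protocols state. The values are the log2 values the authors deposited, 34760 probe sets by 25 arrays, and the scale was read from their range (4.13 to 13.94). The submitters' processing notes name affy; no source used here gives the log base, background correction, summarization or genome build, and scanner files were not used. Array medians were 6.34 to 6.43, and no 2 arrays held identical values (highest r 0.995).

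Arrays were grouped by title. The platform annotation gave 21640 probe sets 1 symbol and 1321 several, and 11799 were unlisted; 21553 matched the RefSeq gene table of GRCm38.p6, with 0 symbols changed. For each symbol the probe set with the highest mean over 25 arrays was kept (19937 genes). Genes were tested with limma 3.58.1 in R 4.3.3 (lmFit on 4 group means, eBayes, Benjamini-Hochberg, threshold 0.05). The fit was run on simulated arrays with independent noise and the same spread of a gene in all 4 groups. That check does not cover groups of unequal spread, or arrays that share a shift in many genes. Errors of differences are SEs. The members, gene lists and contrasts were chosen with earlier results of these data known. Named genes are the members, Pik3ca, Lgr5 and Krt8, the first 3 genes of each list, at most 4 of a list with the smallest adjusted p in a contrast, and the 5 genes nearest to each member by r; other genes or arrays singled out were chosen after their values were seen. Alternatives changed the samples fitted, array weights, eBayes settings, probe set rule, dim-gene filter, scaling, covariates and arrays included. Correlations used scipy 1.17.1, permutations numpy, and figures matplotlib 3.10.9.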

Additional observations from a re-analysis of the deposited data

Results flagged for a closer look

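In groups of 10 arrays, the gap of the highest or lowest array to its neighbour was divided by the range of the group and set against Dixon's critical value of 0.466. Of 10 member and group pairs tested 2 exceeded it, where chance flags about 1 in 20. Both were K8 tumor 9. Elf5 was 11.86 there, with the next K8 tumor at 11.51, a ratio of 0.467. Folr1 was 9.20 there, with the next K8 tumor at 8.53, a ratio of 0.495. The same array had a squamous mean of 9.18, against 6.00 to 6.69 in the other K8 tumors. Its hormone-sensing mean was 7.74, against 9.16 to 9.68, and its milk gene mean 10.28, against 8.04 to 9.81. On these 3 lists and on both genes it lay nearer to the K8 glands than to the other K8 tumors, and the part of its tissue in the 2 values was not tested.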

How the results depend on the processing

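Trend and robust settings of eBayes, the mean of all probe sets, the filter on dim genes, quantile normalization and array medians subtracted kept the counts of members passing at 0, 3 and 2 in the K8 line, the Lgr5 line and between tumors. Fitted on only the groups compared, these counts were 2, 0 and 1. With array weights they were 1 in the K8 line, 4 in the Lgr5 line and 4 between tumors, Aldh1a3 being added in the Lgr5 line and Kit and Folr1 between tumors. With an epithelial or adipocyte covariate they were 0 in the Lgr5 line and 0 between tumors. Without Lgr5 tumors 2, 6, 7, 8 and 9 they were 2, 0 and 0, and without all 7 arrays they were 2, 2 and 0. With 1 array left out they ran from 0 to 0 in the K8 line, 0 to 3 in the Lgr5 line and 1 to 3 between tumors, and were 0 between glands and for the difference of the differences. The lists without the 5 or the 7 arrays, and the relations among members over 13 arrays, were added after seeing the data.

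Same-numbered arrays did not all deviate together: the correlation of their deviations was -0.00844 to 0.0231 in the K8 line, -0.373 to -0.0439 in the Lgr5 line, -0.147 to 0.513 between tumors, where 4 of 10 pairs were over 0.1, and -0.275 to -0.0878 between glands. The numbers were therefore not taken as pairs. With the replicate number as a block, 0 members passed in the Lgr5 line, and Aldh1a3 differed by 0.18 between glands.

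Counts over all genes moved by over 1.5 times in several settings. The K8 line, with 1815, had 2859 with only its groups, 6341 with array weights, 2989 with the adipocyte covariate, 3963 without K8 tumor 9 and Lgr5 tumor 10, 5351 without all 7 arrays, and 30 to 3382 with 1 array left out. The Lgr5 line, with 3168, had 690 with only its groups, 7815 with array weights, 1737 with the block, 2 and 0 with the epithelial and the adipocyte covariate, 1 without the 5 arrays, 5387 without K8 tumor 9 and Lgr5 tumor 10, and 252 to 4990 with 1 array left out. The tumor contrast, with 4246, had 7997 with array weights, 0 with either covariate, 0 without the 5 or the 7 arrays, and 2291 to 5698 with 1 array left out.

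Signs turned in contrasts in which the gene had not passed. With the epithelial covariate the K8 line gave 0.0504 for Aldh1a3 and 0.34 for Cd14, the Lgr5 line 0.40 for Kit and 0.24 for Aldh1a3, the tumors -0.0415 for Kit, -0.38 for Aldh1a3 and -0.10 for Folr1, the glands -0.00681 for Elf5 and -0.0583 for Kit, and the difference of differences -0.18 for Aldh1a3 and -0.16 for Folr1. With the adipocyte covariate the K8 line gave 0.13 for Cd14, the Lgr5 line 0.36 for Kit and 0.10 for Aldh1a3, the tumors -0.12 for Kit and -0.38 for Aldh1a3, and the difference -0.12 for Kit, -0.27 for Aldh1a3 and -0.13 for Folr1. Without the 5 arrays the Lgr5 line gave 0.25 for Kit, the tumors -0.13 for Kit, -0.33 for Aldh1a3 and -0.077 for Folr1, and the difference -0.21 for Kit, -0.29 for Aldh1a3 and -0.30 for Folr1. Without all 7 the Lgr5 line gave 0.43 for Kit, the tumors -0.28 for Kit, -0.44 for Aldh1a3 and -0.10 for Folr1, and the difference -0.35 for Kit, -0.39 for Aldh1a3 and -0.32 for Folr1. Between glands Aldh1a3 was 0.00853 without Lgr5 gland 2 and 0.0385 without K8 gland 2, and Kit -0.0461 without Lgr5 gland 3 and -0.0385 without K8 gland 1. Kit in the K8 line was -0.0747 without K8 gland 2 and 0.16 without K8 gland 1. The cause was not tested. The 2 K8 and 3 Lgr5 glands, and the log2 values without scanner files, limit what can be read.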

Other observations

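Hormone-sensing luminal genes mark the neighbours of the progenitors. Of 9 measured, 4 rose and 1 fell in K8 tumors against K8 glands, where 3.42% of all genes rose and 5.69% fell: Cited1 (3.36 ± 0.88), Foxa1 (3.25 ± 0.88), Pgr (2.81 ± 0.81), the progesterone receptor, and Esr1 (1.86 ± 0.46), the estrogen receptor, were higher, and Xbp1 (-0.97 ± 0.21) was lower (limma, all past the threshold). In Lgr5 tumors against Lgr5 glands 1 rose and 1 fell, Esr1 (1.17) and Xbp1 (-0.84), where 5.28% of all genes rose and 10.6% fell. Without Lgr5 tumors 2, 6, 7, 8 and 9, 0 passed in the Lgr5 line, where 0.00502% of all genes did. Without all 7 arrays the counts were 6 higher and 1 lower in the K8 line and 4 higher and 1 lower in the Lgr5 line, where Pgr rose by 2.55 ± 0.30; 11.4% and 7.14% of all genes rose in these fits. The list mean was 7.74 to 9.68 in K8 tumors, 8.02 to 9.30 in Lgr5 tumors, 7.75 and 8.02 in K8 glands and 8.09 to 8.43 in Lgr5 glands. K8 tumor 9 and Lgr5 tumor 10 had the lowest value of their tumor groups.

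Of 12 measured neutrophil genes, 4 fell in the K8 line and 6 in the Lgr5 line, where 5.69% and 10.6% of all genes fell, and 0 rose in either. Without Lgr5 tumors 2, 6, 7, 8 and 9 the counts were 3 and 0. In that fit 8.06% of all genes fell in the K8 line, and 0.00502% passed in the Lgr5 line. Without all 7 arrays the counts were 9 and 9, where 15.4% and 10.8% of all genes fell. The list includes S100a8 and S100a9, which keratinocytes also make. Its mean was 5.62 to 7.22 in K8 tumors and 5.67 to 8.14 in Lgr5 tumors, against 7.19 and 7.79 in K8 glands and 6.41 to 8.53 in Lgr5 glands. K8 tumor 9 and Lgr5 tumor 10, the tumors with high squamous means, had the highest value of their groups, and the part of squamous tissue was not tested.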
